A study of Mus musculus with 6 samples.

Results

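The glutamate and GABA receptor genes of the mouse were chosen by gene symbol: Gria, Grik, Grin, Grid and Grm for glutamate receptors, and Gabr and Gabbr for GABA receptors. In all, 47 genes of the 42365 rows of the count table met this rule, 26 for glutamate and 21 for GABA. The rule used no measured value, but the genes were chosen with earlier results of these data known. Their RNA was followed in 6 libraries of cultured mouse neural progenitor cells (NPC), which can form neurons and glia. Knockout clone 2 and knockout clone 1 had 2 libraries each, with the genotype label KO, and parental cells had 2 libraries with the genotype label WT. The library names of both knockout clones begin with PARKIN_KO. All 3 groups carry the same cell line label, and no treatment, age or other allele is given. Each labelled knockout group is 1 clone. The titles number the parental libraries as clones too, and the sources used here do not say how the knockout was made.

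Glutamate opens ion channels of the AMPA, kainate and NMDA types, each built from several subunits, and acts on metabotropic receptors, which signal through G proteins. The delta subunits belong to the same channel family but are known as synaptic organisers that bind glycine or D-serine rather than glutamate. GABA opens chloride channels of the GABA-A type, assembled from a large set of alpha, beta, gamma and rarer subunits, and acts on the metabotropic GABA-B receptor, which needs Gabbr1 to bind GABA and Gabbr2 to reach the surface and couple to G proteins. In progenitors and glia these receptors are known for effects on division, migration and maturation. Several GABA-A subunit genes lie side by side in the genome, in clusters of alpha, beta and gamma genes.

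The libraries held 58871554 to 69530032 counts, and the receptor genes together took 0.149% to 0.151% of them in knockout clone 2, 0.149% to 0.152% in knockout clone 1 and 0.111% to 0.112% in parental cells. Levels are in CPM, counts relative to the library total after TMM scaling, a correction for RNA composition. Log2 fold changes, their standard errors (SE) and adjusted p-values come from edgeR's quasi-likelihood test, with p adjusted over all genes tested and a gene called where it was under 0.05. Labelled knockout against parental used each clone as 1 replicate, with its 2 libraries added. Each clone against parental, and clone 2 against clone 1, used the 6 libraries in 3 groups. Where the libraries of a group came from is not given beyond the titles, so these p-values measure the spread between libraries, which may be technical.

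The progenitor genes Nes and Sox2 were present in every library, Nes at 182 and 189 CPM in knockout clone 2, 162 and 179 CPM in knockout clone 1, and 81.9 and 77.2 CPM in parental cells, and Sox2 at 329 and 314 CPM in knockout clone 2, 304 and 313 CPM in knockout clone 1, and 363 and 353 CPM in parental cells. Other marker sums differed between the groups. Summed over 10 genes each, oligodendrocyte lineage markers ran to 6369 to 6640 CPM in clone 2, 5397 to 5511 CPM in clone 1 and 1765 to 1768 CPM in parental cells, with 3 of 10 genes called higher and 4 lower in the labelled knockout. Most of that sum was Olig1 and Olig2, which were called higher with Cspg4, whereas Gpr17, Cnp, Mbp and Mog were called lower. Astrocyte markers summed to 4053 to 4110 CPM in clone 2, 3098 to 3151 CPM in clone 1 and 11172 to 11340 CPM in parental cells (1 of 10 higher, 6 lower). Dividing cell markers summed to 783 CPM in clone 2, 1249 to 1281 CPM in clone 1 and 13.6 to 15.1 CPM in parental cells (10 of 10 higher). Neuron markers summed to 1060 to 1082 CPM in clone 2, 1376 to 1533 CPM in clone 1 and 1083 to 1089 CPM in parental cells (0 of 10 higher, 4 lower), with Rbfox3 and Snap25 under 0.1 CPM in clone 2 and Stmn2 under 0.1 CPM in clone 1. Map2 made up most of that sum, with means of 1035 CPM in clone 2, 1402 CPM in clone 1 and 974 CPM in parental cells. It was not called (adjusted p = 0.153), and the 4 genes called lower were Dcx, Elavl3, Tubb3 and Stmn2. Progenitor markers summed to 3268 to 3282 CPM in clone 2, 2646 to 2665 CPM in clone 1 and 3065 to 3074 CPM in parental cells (4 of 10 higher, 3 lower). Nes was among those called higher, Sox2 was not called, and Sox1, Msi1 and Prom1 were called lower. Mean Sox1 was 3.17 CPM in clone 2, 3.35 CPM in clone 1 and 60.4 CPM in parental cells. Fibroblast markers summed to 52.2 to 53.6 CPM in clone 2, 69.1 to 73.0 CPM in clone 1 and 19.4 to 20.5 CPM in parental cells (1 of 8 higher, 1 lower). Most of that sum was Fbln1, and the other 7 fibroblast genes came to 2.04 and 2.03 CPM in clone 2, 5.08 and 3.12 CPM in clone 1, and 3.61 and 3.73 CPM in parental cells. Over 8 genes each, microglia and macrophage markers summed to at most 9.07 CPM and endothelial and mural markers to at most 4.54 CPM in a library. The part of these cell type differences in the results on receptor genes was not tested. In bulk RNA, fewer cells of a type and less RNA per cell cannot be told apart.

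The promoters of 6 GABA receptor genes are shown because the results turn on them: the 4 genes of the cluster on chromosome 5, which did not move alike in the clones, and the 2 GABA-B genes, which fell in both. Each is RefSeq's window of 250 bases before to 50 bases after a gene start, 5′ to 3′ on the gene's strand. Capitals mark a GC box (GGGCGG) or a CCAAT box (CCAAT), on either strand.
Gabrg1 promoter, GRCm38.p6 chr5:70842568-70842867, minus strand: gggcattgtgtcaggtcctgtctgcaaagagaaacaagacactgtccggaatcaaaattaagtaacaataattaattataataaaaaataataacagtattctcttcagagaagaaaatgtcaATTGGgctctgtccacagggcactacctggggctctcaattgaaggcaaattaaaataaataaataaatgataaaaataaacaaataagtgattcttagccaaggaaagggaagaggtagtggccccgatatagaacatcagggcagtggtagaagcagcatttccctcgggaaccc
Gabra2 promoter, GRCm38.p6 chr5:71095800-71096099, minus strand: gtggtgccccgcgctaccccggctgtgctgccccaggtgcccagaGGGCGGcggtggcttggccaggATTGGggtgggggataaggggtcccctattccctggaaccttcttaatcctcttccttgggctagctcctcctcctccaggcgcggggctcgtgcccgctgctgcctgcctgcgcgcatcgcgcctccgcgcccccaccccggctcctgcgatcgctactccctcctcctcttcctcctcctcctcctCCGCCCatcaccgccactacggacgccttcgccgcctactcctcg
Gabra4 promoter, GRCm38.p6 chr5:71658259-71658558, minus strand: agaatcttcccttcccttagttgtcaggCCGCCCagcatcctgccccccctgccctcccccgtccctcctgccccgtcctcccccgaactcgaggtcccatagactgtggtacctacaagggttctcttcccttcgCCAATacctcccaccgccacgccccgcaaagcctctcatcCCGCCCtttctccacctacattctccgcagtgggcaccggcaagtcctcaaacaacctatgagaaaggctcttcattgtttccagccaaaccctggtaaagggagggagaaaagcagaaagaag
Gabrb1 promoter, GRCm38.p6 chr5:71657671-71657970, plus strand: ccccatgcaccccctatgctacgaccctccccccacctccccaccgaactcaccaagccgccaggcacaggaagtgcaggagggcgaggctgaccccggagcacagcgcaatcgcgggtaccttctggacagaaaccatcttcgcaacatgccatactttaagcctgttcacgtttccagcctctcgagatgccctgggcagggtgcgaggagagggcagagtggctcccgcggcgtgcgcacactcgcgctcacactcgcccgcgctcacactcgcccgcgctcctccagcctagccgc
Gabbr1 promoter, GRCm38.p6 chr17:37045716-37046015, plus strand: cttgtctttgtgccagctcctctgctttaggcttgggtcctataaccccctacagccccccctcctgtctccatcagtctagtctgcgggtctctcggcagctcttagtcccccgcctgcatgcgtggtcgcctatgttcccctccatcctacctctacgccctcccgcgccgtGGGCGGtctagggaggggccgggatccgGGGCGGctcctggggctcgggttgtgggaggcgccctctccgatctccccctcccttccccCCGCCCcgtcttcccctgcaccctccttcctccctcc
Gabbr2 promoter, GRCm38.p6 chr4:46991665-46991964, minus strand: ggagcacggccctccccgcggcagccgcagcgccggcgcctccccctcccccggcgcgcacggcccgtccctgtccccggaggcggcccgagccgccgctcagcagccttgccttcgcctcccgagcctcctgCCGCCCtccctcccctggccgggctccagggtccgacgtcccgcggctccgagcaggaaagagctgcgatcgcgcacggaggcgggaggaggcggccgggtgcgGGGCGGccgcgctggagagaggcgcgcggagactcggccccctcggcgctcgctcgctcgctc

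The windows differ widely in base composition. The Gabrg1 window is 38.3% G and C with 3 CpG, whereas Gabra2 has 70% and 25 CpG, Gabra4 58.7% and 12, Gabrb1 66.0% and 25, Gabbr1 67.3% and 18, and Gabbr2 80.3% and 46. The median of all 32851 RefSeq windows is 52.7% and 7 CpG. A GC box occurs 2 times in Gabra2, Gabra4 and Gabbr2 and 3 times in Gabbr1, and is in 35.7% of all windows. A CCAAT box occurs 1 time each in Gabrg1, Gabra2 and Gabra4, and is in 37.4% of all windows. Neither a TATA box (TATAAA, in 13.6% of windows) nor a cyclic AMP response element (TGACGTCA, in 1.79%) was found in the 6 windows on either strand. These matches are descriptions of letters, not of bound sites. The RefSeq table holds more than 1 start for some genes, Gabrb1 among them, and 1 is shown for each. For Gabrb1 it is the start nearer to Gabra4. RefSeq windows were found for 32 of the 47 receptor genes.

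Receptor genes ranged from abundant to silent. A mean of at least 1 CPM in at least 1 group was reached by 27 genes, 19 of them for glutamate receptors, 6 for GABA-A and 2 for GABA-B. Of the rest, 13 were low and 7 were silent, meaning under 0.1 CPM in every library. Among the silent genes were Gabra6, Gabrg3, Gabrp, Gabrr3 and Grm7. Each of them had a count in some library, so 0 of the 47 were without any count. Per kilobase of exon, which allows a rough comparison of genes, the leading genes were Grm5, Grik5 and Gria4 in both clones, and Grik5, Gabbr1, Gabbr2 and Gria4 in parental cells. The length joins all annotated exons of a gene, 15548 bases for Gria2 and 6305 for Gria4, and may exceed that of the RNA expressed. All shares per length given below rest on it. Mean levels in clone 2, clone 1 and parental cells were 39.3, 46.1 and 4.002 CPM per kb for Grm5, 38.5, 28.5 and 38.4 for Grik5, 35.0, 37.2 and 16.6 for Gria4, 13.7, 10.2 and 31.7 for Gabbr1 and 2.31, 6.03 and 19.7 for Gabbr2.

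**Figure D1:**
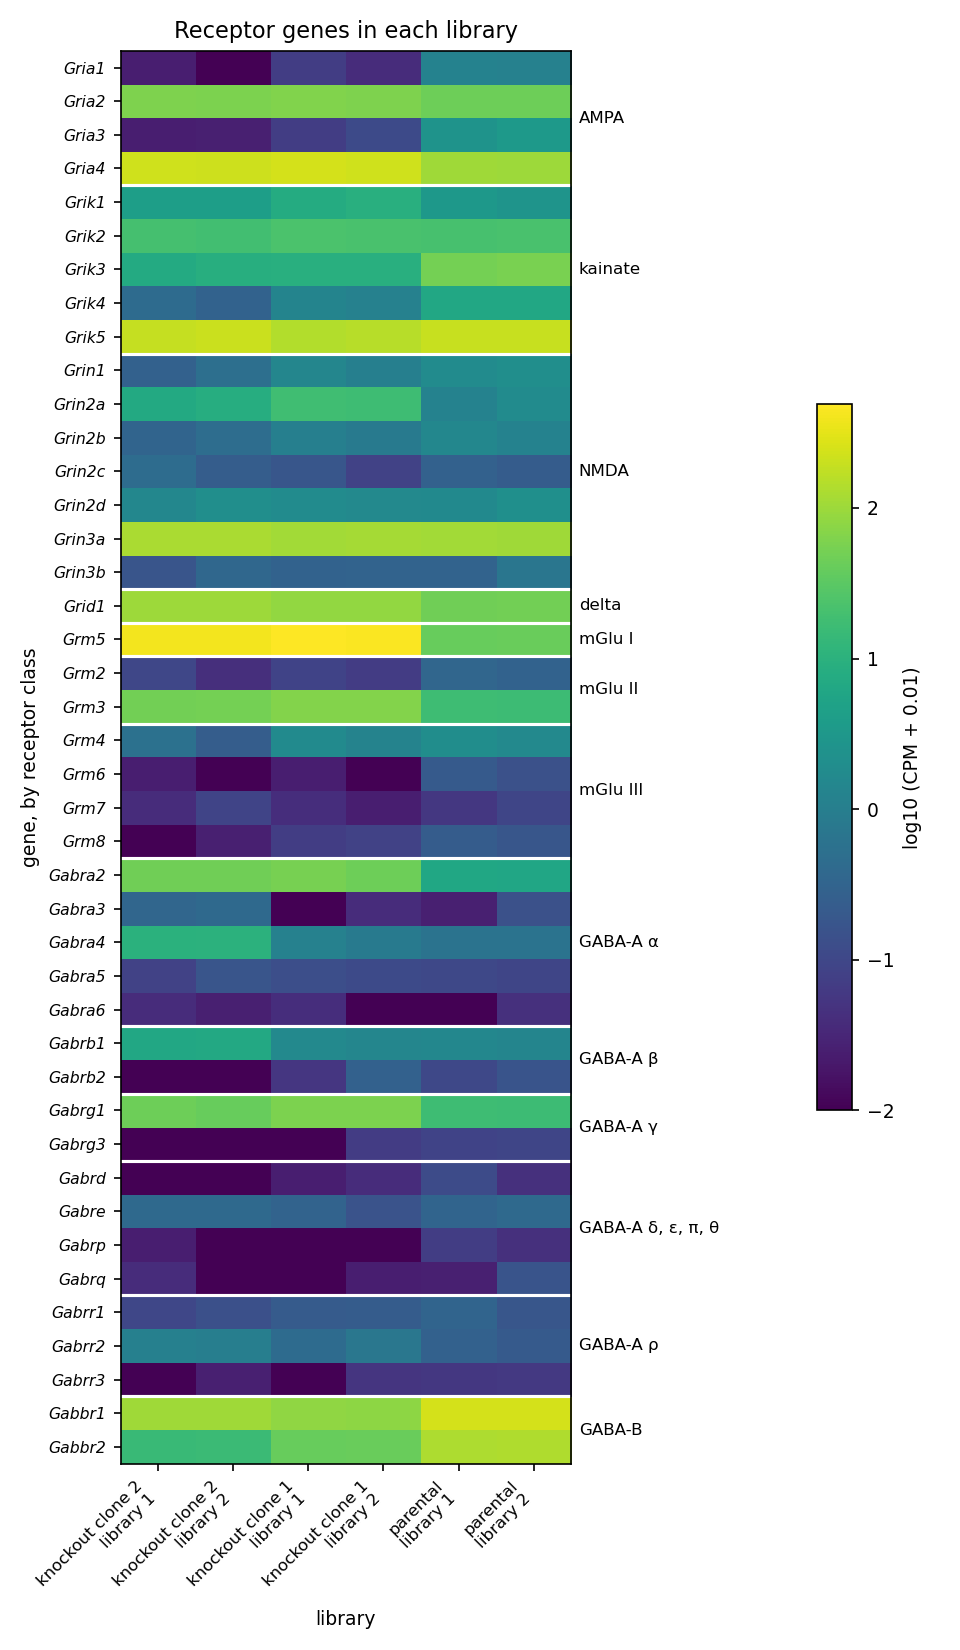
Heat map of the level of 42 of the 47 receptor genes (rows, by class) in the 6 libraries (columns: knockout clone 2, knockout clone 1, parental). Colour is log10 of CPM plus 0.01; genes under 0.1 CPM in every library are dark throughout.

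With the clones as replicates, 17 of the 38 receptor genes tested were called in the labelled knockout, 9 higher and 8 lower. That is 44.7% of them, beside 26.7% of all genes tested (13.0% higher and 13.6% lower). Their median log2 fold change was -0.084, beside 0.032 for all genes. Clone 2 against parental gave 25 of 35 (14 higher, 11 lower), beside 53.5% of all genes (26.7% higher, 26.8% lower), and clone 1 against parental gave 21 of 35 (12 higher, 9 lower), beside 54.5% (27.3% higher, 27.2% lower). These comparisons share the parental libraries. The count with the clones as replicates was 10 without parental library 1, where 9.62% of all genes were called, and 11 without parental library 2, where 9.59% were. Both fits hold 1 parental column. For the 12 genes described here whose call was lost in one of them or in both, the log2 fold change moved by at most 0.275, and for 8 of them by under 0.1.

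**Figure D2:**
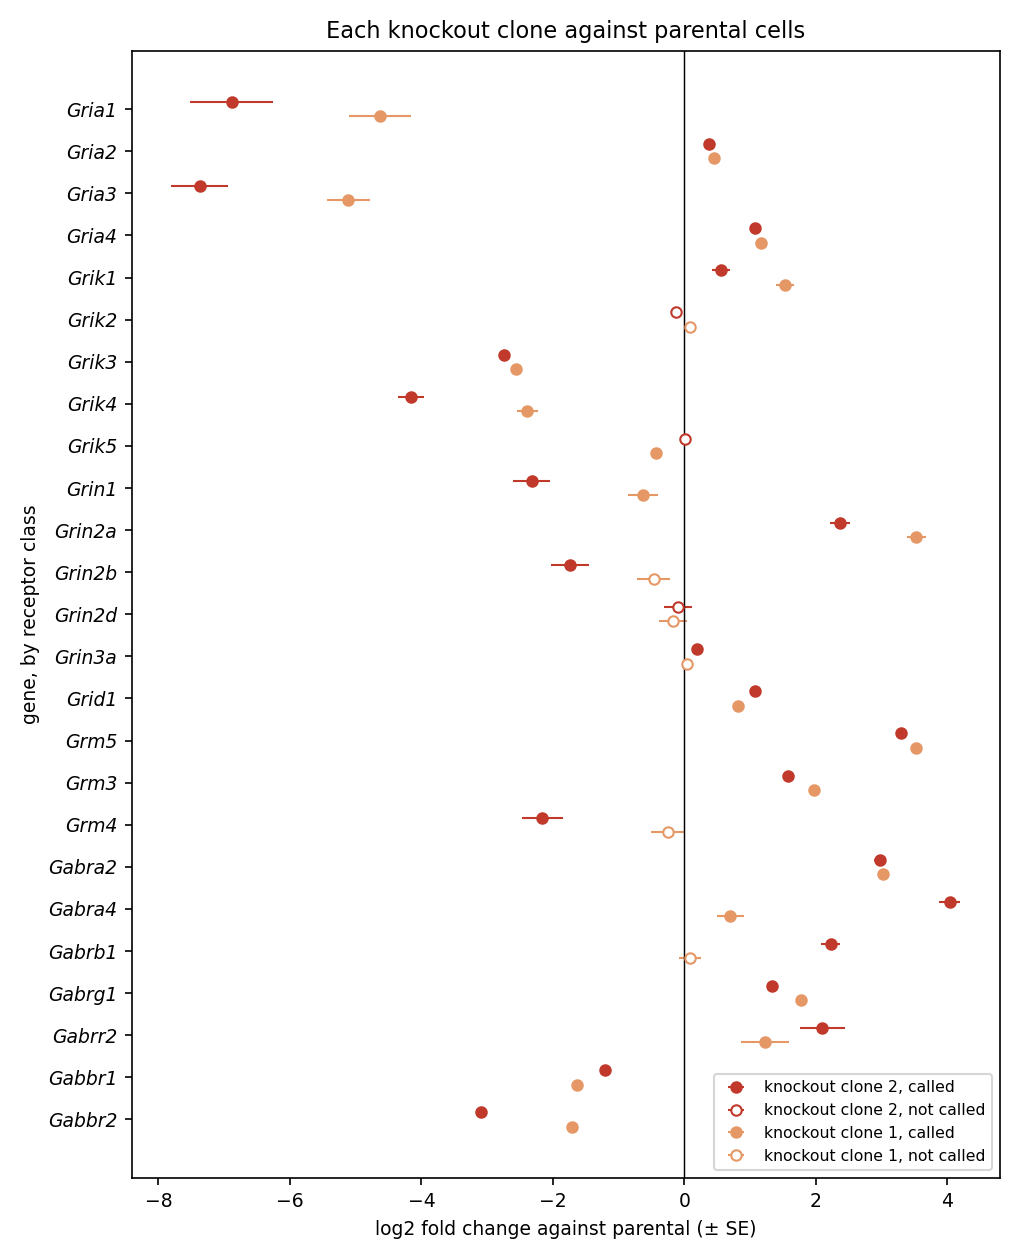
Log2 fold change of 25 of the 27 receptor genes that reached a group mean of 1 CPM, for knockout clone 2 and knockout clone 1, each against parental; bars are 1 SE and filled points are called. Gria1 and Gria3 lie lowest, at -6.89 and -7.37 in clone 2, and Gabra4 highest, at 4.03 in clone 2.

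The AMPA receptor genes split into a pair that rose and a pair that fell. Gria4 (ENSMUSG00000025892), a subunit known from early development and glia, was at 227 and 214 CPM in knockout clone 2, 239 and 229 CPM in knockout clone 1, and 107 and 103 CPM in parental cells. It rose in the labelled knockout (log2 fold change 1.15, SE 0.086, adjusted p = 0.000925). Gria2 (ENSMUSG00000033981), whose edited subunit makes the channel poorly permeable to calcium, was at 59.7 and 57.9 CPM in knockout clone 2, 63.5 and 61.2 CPM in knockout clone 1, and 45.9 and 44.97 CPM in parental cells. It also rose (log2 fold change 0.45, SE 0.088, adjusted p = 0.0192), but the call was lost without parental library 1 (0.47, adjusted p = 0.274) or parental library 2 (0.43, adjusted p = 0.316).

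Gria1 and Gria3, subunits of the AMPA receptors of mature neurons, were low in parental cells and nearly gone from the clones. Gria1 (ENSMUSG00000020524) had 1 and 0 counts in knockout clone 2, 4 and 2 counts in knockout clone 1, and 76 and 66 counts in parental cells (1.18 and 1.12 CPM in parental cells). It fell in the labelled knockout (log2 fold change -5.34, SE 0.55, adjusted p = 0.00244), and from counts alone its level in clone 2 was 0.00678 of that in parental cells (95% counting interval 0.000171 to 0.0384). Gria3 (ENSMUSG00000001986) had 1 and 1 counts in knockout clone 2, 4 and 7 counts in knockout clone 1, and 163 and 193 counts in parental cells. It fell as well (log2 fold change -5.81, SE 0.57, adjusted p = 0.00203), with a level in clone 2 of 0.00541 of that in parental cells (0.000653 to 0.0197). Gria1 and Gria3 passed the filter on low counts through the parental libraries alone, so only a fall could be called. No labelled knockout library overlapped a parental one for any of the 4 AMPA genes, but the share of all genes without overlap was not counted. All 4 were called with the clones as replicates, beside 26.7% of all genes tested. Per length, Gria4 made up 90.2% of AMPA receptor RNA in clone 2, 90.2% in clone 1 and 83.0% in parental cells.

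Among kainate receptor genes, Grik3 and Grik4 fell and Grik5 held the largest share. Grik3 (ENSMUSG00000001985), a low-affinity subunit that forms channels on its own, was at 7.29 and 8.58 CPM in knockout clone 2, 9.01 and 8.99 CPM in knockout clone 1, and 51.5 and 54.7 CPM in parental cells. It fell in the labelled knockout (log2 fold change -2.62, SE 0.12, adjusted p = 0.000286). Grik4 (ENSMUSG00000032017), a high-affinity subunit that needs a partner, was at 0.423 and 0.292 CPM in knockout clone 2, 1.28 and 1.17 CPM in knockout clone 1, and 6.45 and 6.39 CPM in parental cells. It fell too (log2 fold change -2.99, SE 0.56, adjusted p = 0.0184), more in clone 2 than in clone 1 (log2 fold change -1.76, SE 0.23, adjusted p = 1.91e-05 for clone 2 over clone 1), and the call with clones as replicates was lost without parental library 1 (-2.98, adjusted p = 0.137) or 2 (-2.999, adjusted p = 0.136).

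Grik5 (ENSMUSG00000003378), the other high-affinity subunit, was at 192 and 207 CPM in knockout clone 2, 141 and 154 CPM in knockout clone 1, and 198 and 198 CPM in parental cells. It was lower in clone 1 (log2 fold change -0.43, SE 0.05, adjusted p = 1.71e-06), while clone 2 lay on either side of the parental libraries (log2 fold change 0.006, SE 0.05, adjusted p = 0.931). Grik1 (ENSMUSG00000022935) was at 4.24 and 4.31 CPM in knockout clone 2, 7.59 and 9.23 CPM in knockout clone 1, and 3.18 and 2.63 CPM in parental cells. It was higher in each clone alone, with 0.56, adjusted p = 0.00328 in clone 2 and 1.53, adjusted p = 4.56e-08 in clone 1 on the log2 scale, but missed the threshold with the clones as replicates (log2 fold change 1.16, SE 0.35, adjusted p = 0.0642). It passed it by DESeq2 (1.14, adjusted p = 0.0107), with no filter on low counts (1.25, adjusted p = 0.0312) and with the libraries as replicates (1.13, adjusted p = 0.0472). Without parental library 2 the clone 2 value missed it too (adjusted p = 0.0514). Grik2 (ENSMUSG00000056073) was at 20.01 and 19.0 CPM in knockout clone 2, 22.9 and 22.0 CPM in knockout clone 1, and 20.8 and 21.7 CPM in parental cells. The clone 2 libraries lay below and the clone 1 libraries above the parental ones, and the gene was not called with the clones as replicates (log2 fold change 0.013, SE 0.12, adjusted p = 0.945). Per length, Grik5 made up 92.7% of kainate receptor RNA in clone 2, 87.3% in clone 1 and 81.0% in parental cells, and Grik3 2.12%, 3.07% and 12.5%.

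NMDA receptor RNA was mostly Grin3a, with little of the obligatory subunit. Grin3a (ENSMUSG00000039579), a subunit known to lower calcium flow through the channel, was at 125 and 124 CPM in knockout clone 2, 111 and 114 CPM in knockout clone 1, and 111 and 107 CPM in parental cells. Its change was small (log2 fold change 0.15, SE 0.10, adjusted p = 0.296), and it was called in clone 2 alone (0.19, adjusted p = 0.00148). Grin1 (ENSMUSG00000026959), which every NMDA receptor needs, was at 0.272 and 0.503 CPM in knockout clone 2, 1.43 and 1.06 CPM in knockout clone 1, and 1.82 and 2.03 CPM in parental cells. It fell in clone 2 (log2 fold change -2.32, SE 0.28, adjusted p = 2.31e-06) and in clone 1 (log2 fold change -0.63, SE 0.23, adjusted p = 0.0313) but missed the threshold with the clones as replicates (log2 fold change -1.21, SE 0.54, adjusted p = 0.161). Its call in clone 1 was lost without parental library 1 (adjusted p = 0.0678), parental library 2 (adjusted p = 0.153) or clone 1 library 2 (adjusted p = 0.187), and by DESeq2 (-0.64, adjusted p = 0.0964). Grin1 shares 1307 bases of exon with its antisense gene Grin1os, which held 15 counts in all.

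With the clones as replicates, Grin2a was the NMDA subunit gene called, and it rose. Grin2a (ENSMUSG00000059003), a glutamate-binding subunit that takes over as neurons mature, was at 7.12 and 8.45 CPM in knockout clone 2, 17.8 and 17.1 CPM in knockout clone 1, and 1.21 and 1.83 CPM in parental cells. It rose in the labelled knockout (log2 fold change 3.08, SE 0.46, adjusted p = 0.00896), more in clone 1 than in clone 2 (log2 fold change -1.17, SE 0.12, adjusted p = 1.3e-06 for clone 2 over clone 1), and the call with the clones as replicates was lost without parental library 1 (adjusted p = 0.0594). Grin2b (ENSMUSG00000030209), the subunit known from early development, was at 0.317 and 0.470 CPM in knockout clone 2, 1.07 and 0.830 CPM in knockout clone 1, and 1.45 and 1.17 CPM in parental cells. It fell in clone 2 (log2 fold change -1.74, SE 0.28, adjusted p = 6.9e-05) and was not called in clone 1 (-0.47, adjusted p = 0.126). Grin2d (ENSMUSG00000002771) was at 1.48 and 2.11 CPM in knockout clone 2, 1.78 and 1.62 CPM in knockout clone 1, and 1.65 and 2.19 CPM in parental cells, with overlapping groups (log2 fold change -0.11, SE 0.22, adjusted p = 0.76). Grin2c and Grin3b stayed under 0.7 CPM in every library, and Grin3b shares 1059 bases of exon with Tmem259 on the opposite strand, so reads of the 2 genes cannot be told apart without strand. Per length, Grin3a made up 91.8% of NMDA receptor RNA in clone 2, 85.9% in clone 1 and 91.5% in parental cells, Grin2a 3.93%, 9.12% and 0.876%, and Grin1 0.361%, 1.21% and 2.05%.

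Of the delta receptor genes, Grid1 (ENSMUSG00000041078) was at 101 and 100.04 CPM in knockout clone 2, 84.6 and 83.5 CPM in knockout clone 1, and 46.9 and 48.3 CPM in parental cells. All labelled knockout libraries lay above the parental ones, and the gene rose (log2 fold change 0.99, SE 0.12, adjusted p = 0.00432).

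The largest rise among the receptor genes called with the clones as replicates was that of a metabotropic glutamate receptor. Grm5 (ENSMUSG00000049583), the group I receptor known from neural progenitors and glia, which raises intracellular calcium through phospholipase C, was at 408 and 398 CPM in knockout clone 2, 489.9 and 454 CPM in knockout clone 1, and 40.5 and 41.5 CPM in parental cells. It rose 10.9-fold in the labelled knockout (log2 fold change 3.45, SE 0.11, adjusted p = 0.000172). Grm3 (ENSMUSG00000003974), a group II receptor that lowers cyclic AMP and is common in glia, was at 49.2 and 51.0 CPM in knockout clone 2, 65.8 and 66.2 CPM in knockout clone 1, and 16.9 and 16.7 CPM in parental cells. It rose as well (log2 fold change 1.82, SE 0.15, adjusted p = 0.00127). For both genes every labelled knockout library was above every parental one, and clone 2 lay below clone 1, with a log2 fold change of clone 2 over clone 1 of -0.23 for Grm5 and -0.40 for Grm3. Per length, Grm5 made up 70.4% of metabotropic glutamate receptor RNA in clone 2, 67.7% in clone 1 and 40.2% in parental cells, and Grm3 29.4%, 31.9% and 55.3%.

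Other metabotropic glutamate receptor genes were low. Grm4 (ENSMUSG00000063239), a group III receptor, was at 0.558 and 0.227 CPM in knockout clone 2, 1.74 and 1.27 CPM in knockout clone 1, and 1.95 and 1.61 CPM in parental cells. It fell in clone 2 (log2 fold change -2.16, SE 0.31, adjusted p = 2.05e-05) and was not called in clone 1 (-0.25, adjusted p = 0.44). Grm2 (ENSMUSG00000023192), the other group II gene, had 6 and 2 counts in knockout clone 2, 5 and 4 counts in knockout clone 1, and 22 and 17 counts in parental cells. It fell in the labelled knockout (log2 fold change -2.23, SE 0.42, adjusted p = 0.0169), a call lost without parental library 1 (adjusted p = 0.152) or 2 (adjusted p = 0.0854). Grm6 (ENSMUSG00000000617), known from retinal bipolar cells, had 1 and 0 counts in knockout clone 2, 1 and 0 counts in knockout clone 1, and 13 and 8 counts in parental cells. It fell too (log2 fold change -4.23, SE 0.71, adjusted p = 0.012), a call lost without parental library 2 (adjusted p = 0.0639). Grm8 had 0 and 1 counts in clone 2, 4 and 5 counts in clone 1, and 14 and 10 counts in parental cells. It was called in clone 2 alone (-4.33, adjusted p = 0.00192). Grm2, Grm6 and Grm8 passed the filter on low counts through the parental libraries alone, so only a fall could be called. Grm6 was not tested in the fit of 6 libraries.

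**Figure D3:**
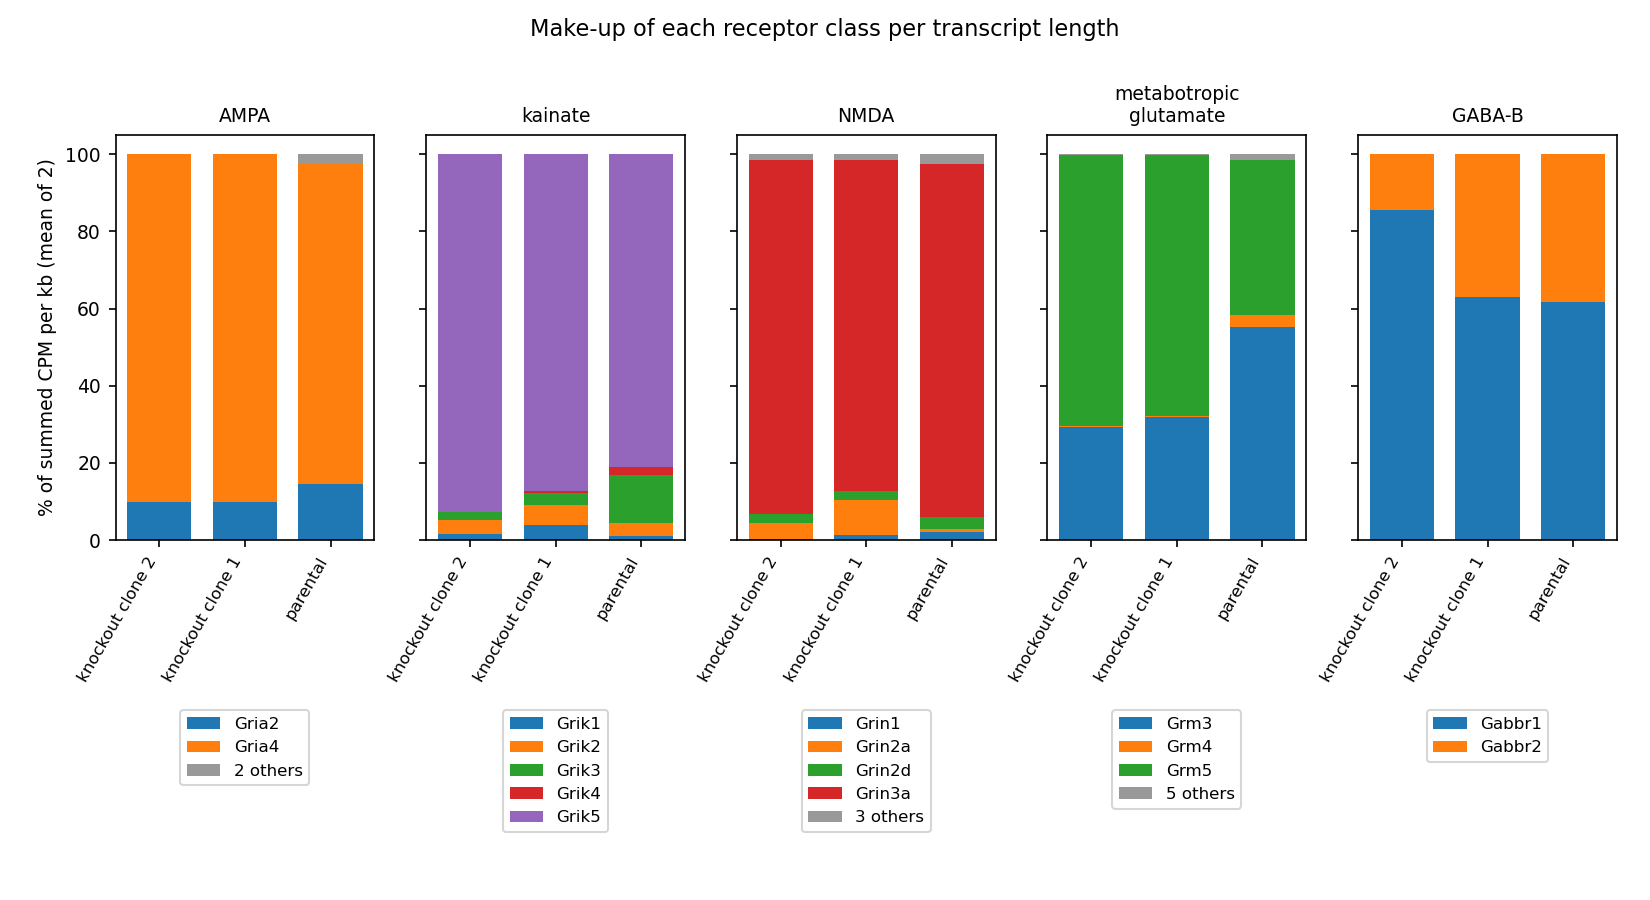
Makeup of 5 receptor classes (AMPA, kainate, NMDA, metabotropic glutamate, GABA-B) as the percentage of the class's summed CPM per kilobase of exon, for knockout clone 2, knockout clone 1 and parental cells (means of 2 libraries). Gria4, Grik5 and Grin3a lead their classes in all 3 groups, whereas Grm5 leads its class in the clones and Grm3 in parental cells.

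Of the 19 GABA-A subunit genes, 6 reached 1 CPM and 13 stayed under 0.5 CPM in every library. With the clones as replicates 3 of the 11 tested were called, all higher, and they were Gabra2, Gabrg1 and Gabrr2. That is 27.3%, near the 26.7% of all genes called. Gabra2 (ENSMUSG00000000560) was at 47.9 and 47.7 CPM in knockout clone 2, 54.1 and 45.4 CPM in knockout clone 1, and 6.28 and 5.92 CPM in parental cells. It rose 8.17-fold (log2 fold change 3.03, SE 0.11, adjusted p = 0.000217). Gabrg1 (ENSMUSG00000001260), a gamma subunit that many glia express, was at 44.3 and 39.9 CPM in knockout clone 2, 57.9 and 57.2 CPM in knockout clone 1, and 17.3 and 16.2 CPM in parental cells. It rose as well (log2 fold change 1.60, SE 0.17, adjusted p = 0.00258), with clone 2 below clone 1 (-0.45, adjusted p = 2.3e-05).

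Those 2 genes lie beside Gabra4 and Gabrb1 on chromosome 5, where the clones differed. On GRCm38 the order is Gabrg1 (chr5:70751047-70842617), Gabra2 (chr5:70957597-71095849), Gabra4 (chr5:71569749-71658308) and Gabrb1 (chr5:71658113-72149037), the last on the plus strand and the others on the minus strand. Gabra4 (ENSMUSG00000029211), known as a subunit of extrasynaptic receptors, was at 9.87 and 10.1 CPM in knockout clone 2, 1.13 and 0.859 CPM in knockout clone 1, and 0.607 and 0.610 CPM in parental cells. It was 3.33 higher in clone 2 than in clone 1 on the log2 scale (SE 0.15, adjusted p = 6.26e-11). Against parental cells it rose in clone 2 (log2 fold change 4.03, SE 0.16, adjusted p = 1.85e-12) and by less in clone 1 (log2 fold change 0.70, SE 0.21, adjusted p = 0.0102). The clone 1 call was lost without parental library 1 (adjusted p = 0.055) or clone 1 library 1 (adjusted p = 0.0869), and with the clones as replicates the gene missed the threshold (log2 fold change 3.21, SE 1.21, adjusted p = 0.13).

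Gabrb1 (ENSMUSG00000029212) was at 6.58 and 6.71 CPM in knockout clone 2, 1.62 and 1.41 CPM in knockout clone 1, and 1.495 and 1.34 CPM in parental cells. The clone 2 libraries stood apart from the other 4. The gene rose in clone 2 (log2 fold change 2.23, SE 0.15, adjusted p = 1.14e-09), was not called in clone 1 (log2 fold change 0.092, SE 0.17, adjusted p = 0.675) and was higher in clone 2 than in clone 1 (log2 fold change 2.13, SE 0.14, adjusted p = 8.79e-09). Gabra4 and Gabrb1 lie head to head, with RefSeq starts 387 bases apart when the Gabrb1 start nearer to Gabra4 is taken. In the annotation that gave the positions they share 46 bases of exon, so a few reads of the 2 genes could be exchanged. The protein-coding gene between Gabra2 and Gabra4, Cox7b2, had at most 1 count in a library. The nearest gene beyond Gabrb1 that was tested, Commd8, was at 32.9 and 28.9 CPM in knockout clone 2, 35.6 and 34.1 CPM in knockout clone 1, and 31.9 and 28.9 CPM in parental cells. It was not called with the clones as replicates (log2 fold change 0.14, SE 0.11, adjusted p = 0.401). Commd8 was called higher in clone 1 (0.19, adjusted p = 0.03) but not in clone 2 (0.021, adjusted p = 0.824) or for clone 2 over clone 1 (-0.17, adjusted p = 0.07).

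**Figure D4:**
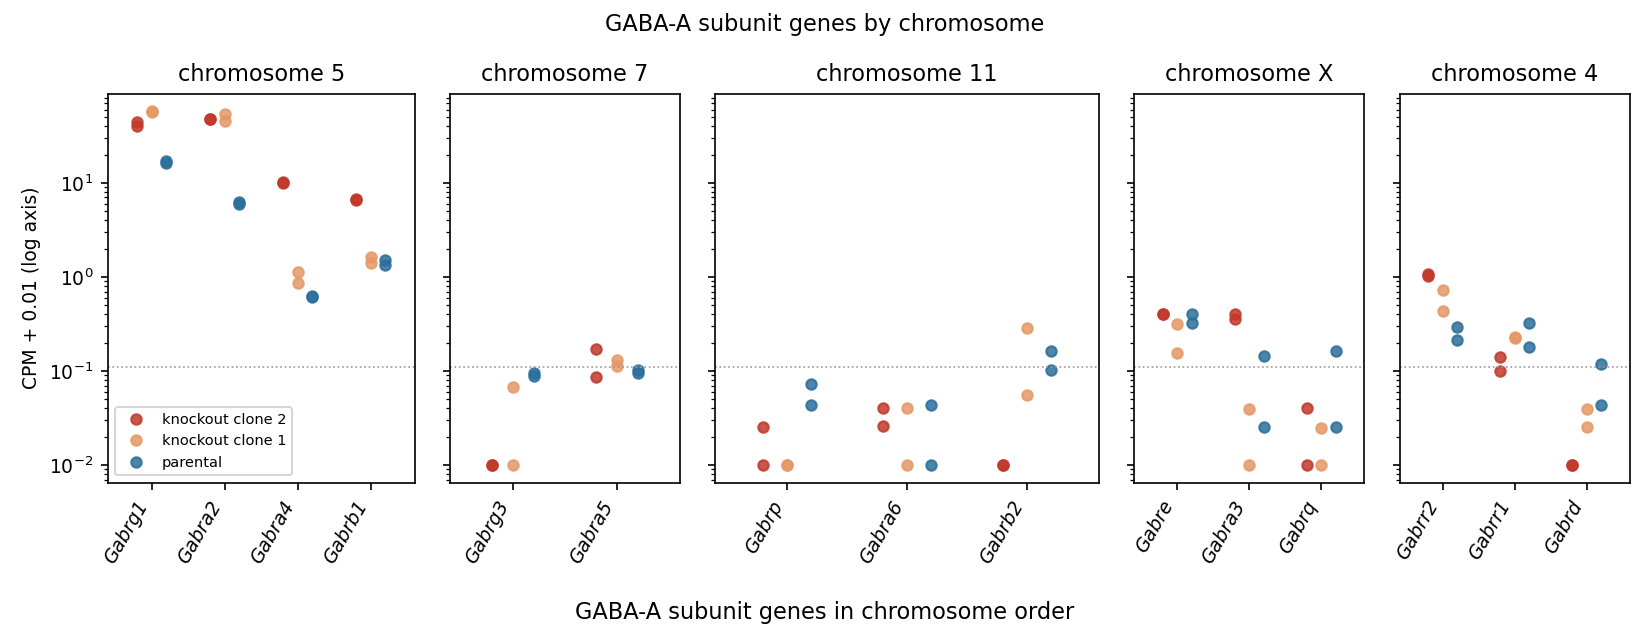
Level of GABA-A subunit genes in each library (CPM plus 0.01, log axis), in panels by chromosome (5, 7, 11, X and 4), in the order of knockout clone 2, knockout clone 1 and parental. The dotted line marks 0.1 CPM; Gabra4 and Gabrb1 are highest in clone 2, and the chromosome 11 genes lie near or under the line. Gabrp and Gabrd lie apart from the clusters on their chromosomes.

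On chromosome 7, Gabra5 and Gabrg3 held at most 10 and 5 counts in a library. On chromosome 11, Gabra6 was silent and Gabrb2 reached 19 counts in 1 library of clone 1 and 0 in both of clone 2. On chromosome X, Gabre lay at 0.146 to 0.392 CPM and Gabrq at 9 counts or fewer. Gabra3 had 23 and 24 counts in knockout clone 2, 0 and 2 counts in knockout clone 1, and 1 and 8 counts in parental cells. In the fit of 6 libraries it passed the filter on low counts through the clone 2 libraries alone, so clone 2 could only be called higher. The gene was singled out after its values were seen, and its level in clone 2 was 24.7 times that in clone 1 (95% counting interval 6.46 to 210). It was called higher in clone 2 than in parental cells (2.29, adjusted p = 0.0119), a call lost without parental library 1 (adjusted p = 0.148) or either clone 2 library (adjusted p = 0.052 and 0.0743).

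Gabrr2 (ENSMUSG00000023267), a rho subunit of the kind known from retina, lies on chromosome 4 beside Gabrr1. It was at 1.07 and 1.02 CPM in knockout clone 2, 0.427 and 0.714 CPM in knockout clone 1, and 0.2804 and 0.203 CPM in parental cells. It rose in the labelled knockout (log2 fold change 1.77, SE 0.43, adjusted p = 0.0356), but the call was lost without parental library 1 (adjusted p = 0.0801), parental library 2 (adjusted p = 0.15) or clone 1 library 2 (adjusted p = 0.0904). Gabrr1 had 6 to 20 counts in a library. Per length, Gabra2 made up 31.3% of GABA-A RNA in clone 2, 30.5% in clone 1 and 8.98% in parental cells, and Gabrg1 26.7%, 34.4% and 23.9%.

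Both GABA-B genes fell. Gabbr1 (ENSMUSG00000024462) was at 107 and 106 CPM in knockout clone 2, 80.0 and 79.1 CPM in knockout clone 1, and 246 and 246 CPM in parental cells, lower in every labelled knockout library (log2 fold change -1.37, SE 0.16, adjusted p = 0.00366). Gabbr2 (ENSMUSG00000039809) was at 15.1 and 15.7 CPM in knockout clone 2, 39.2 and 41.4 CPM in knockout clone 1, and 129 and 134 CPM in parental cells. It fell more in clone 2 (log2 fold change -3.09, SE 0.055, adjusted p = 5.46e-17) than in clone 1 (log2 fold change -1.71, SE 0.05, adjusted p = 2.77e-14), and the difference between the clones was itself called (log2 fold change -1.39, SE 0.054, adjusted p = 1.34e-11). With the clones as replicates it was called narrowly (log2 fold change -2.21, SE 0.47, adjusted p = 0.0317), a call lost without parental library 1 (-2.23, adjusted p = 0.322), parental library 2 (-2.19, adjusted p = 0.332) or clone 1 library 1 (adjusted p = 0.0503), and with no filter on low counts (adjusted p = 0.152). Summed per length, GABA-B RNA came to 16.1 and 16.0 CPM per kb in clone 2, 16.2 and 16.4 in clone 1, and 51.1 and 51.7 in parental cells.

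Between the clones, 22 of the 35 receptor genes tested were called, 9 higher and 13 lower in clone 2 than in clone 1, which is 62.9% beside 36.4% of all genes (16.1% higher, 20.3% lower). The AMPA genes were not called; clone 2 differed from clone 1 on the log2 scale by -2.26, adjusted p = 0.147 for Gria1, -0.085, adjusted p = 0.194 for Gria2, -2.25, adjusted p = 0.0516 for Gria3 and -0.087, adjusted p = 0.153 for Gria4. Gria3 passed the threshold without clone 1 library 1 (adjusted p = 0.0473) and Gria4 without clone 1 library 2 (adjusted p = 0.017).

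The RNA of genes whose proteins accompany glutamate receptors moved in both directions. Of 15 AMPA and kainate auxiliary subunit genes tested, 4 were higher and 5 lower in the labelled knockout (60%, median log2 fold change -0.46), beside 26.7% and 0.032 for all genes. Gsg1l, an auxiliary subunit that slows AMPA channel recovery, was at 21.2 and 21.6 CPM in knockout clone 2, 14.1 and 16.2 CPM in knockout clone 1, and 0.576 and 0.746 CPM in parental cells. It rose (log2 fold change 4.82, SE 0.27, adjusted p = 0.000462). Cacng5, a TARP auxiliary subunit, was at 0.407 and 0.551 CPM in knockout clone 2, 1.27 and 1.22 CPM in knockout clone 1, and 106 and 109 CPM in parental cells. It fell (log2 fold change -6.93, SE 0.48, adjusted p = 0.00107). Shisa8 (log2 fold change -2.01, SE 0.18, adjusted p = 0.0015) and Olfm1 (log2 fold change -1.09, SE 0.16, adjusted p = 0.00811), both AMPA receptor binding proteins, fell.

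Of 21 scaffold and trafficking genes of glutamate receptors, 4 were higher and 7 lower (52.4%, median -0.19, beside 26.7% of all genes). Camk2b, a calcium-dependent kinase of the postsynaptic density, was at 251 and 256 CPM in knockout clone 2, 211 and 222 CPM in knockout clone 1, and 44.2 and 43.5 CPM in parental cells. It rose (log2 fold change 2.45, SE 0.12, adjusted p = 0.00033). Homer1, which binds group I metabotropic receptors, rose (log2 fold change 0.61, SE 0.11, adjusted p = 0.0155), a call lost without parental library 1 (adjusted p = 0.162) or 2 (adjusted p = 0.224). The scaffold genes Shank2 (log2 fold change -3.11, SE 0.28, adjusted p = 0.00153) and Dlgap2 (log2 fold change -2.46, SE 0.33, adjusted p = 0.00605) fell, and both were under 3 CPM in every library.

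Of 17 GABA receptor scaffold and auxiliary genes, 3 were higher and 3 lower (35.3%, median 0.011, not far from the 26.7% of all genes). Plcl2 (log2 fold change 0.81, SE 0.12, adjusted p = 0.00901), which binds GABA-A receptors, rose. Clptm1 (log2 fold change -0.47, SE 0.087, adjusted p = 0.016), which holds GABA-A receptors in the endoplasmic reticulum, and Gabarap (log2 fold change -0.44, SE 0.10, adjusted p = 0.0288), which carries them, fell. Without parental library 1 or 2 the calls of Plcl2 (adjusted p = 0.143 and 0.114), Clptm1 (0.26 and 0.257) and Gabarap (0.276 and 0.343) were lost, and that of Gabarap also without clone 2 library 1 (0.0608).

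Of 19 genes of glutamate synthesis, release and uptake, 4 were higher and 4 lower (42.1%, median 0.087, beside 26.7% of all genes). The glutamine transporter genes Slc38a3 (log2 fold change 2.104, SE 0.092, adjusted p = 0.000272) and Slc38a1 (log2 fold change -1.55, SE 0.12, adjusted p = 0.000946) moved in opposite directions. Got1, an aminotransferase that makes glutamate, rose (log2 fold change 1.54, SE 0.13, adjusted p = 0.00139), and the neuronal glutamate transporter gene Slc1a1 fell (log2 fold change -2.66, SE 0.23, adjusted p = 0.00143). Of 11 genes of GABA synthesis, uptake and chloride balance, 3 were higher and 4 lower (63.6%, median -0.083, beside 26.7% of all genes). The taurine transporter gene Slc6a6 (log2 fold change -4.03, SE 0.49, adjusted p = 0.00427), Dbi, whose protein binds GABA-A receptors (log2 fold change -1.32, SE 0.19, adjusted p = 0.00794), and Aldh9a1, an enzyme of an alternative route to GABA (log2 fold change -0.60, SE 0.10, adjusted p = 0.00988), fell. The Aldh9a1 call was lost without parental library 1 (adjusted p = 0.133) or 2 (adjusted p = 0.182).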

How the data were processed

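Total RNA was purified on silica columns, per the labels' protocols, and libraries came from an ultra-low input kit or a TruSeq kit, with no word on which library had which. STAR and featureCounts (no versions), with GRCm38.p6 and mm10 as builds, stand in the submitters' processing notes. The deposited table holds raw counts per Ensembl gene, not normalized. The strand and multi-mapping settings are not stated in the sources used here.

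Groups came from the sample titles, and columns were matched by name. Of the 42365 IDs, 41869 were found in the GENCODE annotation of GRCm38 that gave positions and exon lengths. Symbols of the receptor and listed genes came with the counts. Genes passing filterByExpr (minimum count of 10) were tested in R 4.3.3 with edgeR 4.0.16 (TMM, robust quasi-likelihood test, Benjamini-Hochberg over all genes, threshold 0.05). With the 2 libraries of each clone added, the fit had 4 columns, 2 residual degrees of freedom and 24506 genes; with 6 libraries in 3 groups it had 3 and 23400. The fit of 4 columns takes the spread between clones to equal that between parental libraries. SE was computed as the absolute log2 fold change over the root of F. Intervals of count ratios are exact binomial ones at 95% and cover counting error only. Genes with a group mean of at least 1 CPM are described in full, others where called, and up to 4 genes of each partner list, those with the smallest adjusted p. The receptor genes, lists, promoters and motifs were chosen with earlier results of these data known. The fits were also run on simulated data. Those data held no difference between the clones, so they do not test how the fits handle spread between clones. Alternatives were DESeq2 1.42.0, other scalings and filters, a replicate block, other units of replication and leaving out each library. No 2 libraries of a group agreed within sampling noise (chi-square per gene 4.92 in clone 2, 22.1 in clone 1 and 3.48 in parental cells). The fit of 6 libraries takes 1 shared spread for the 3 groups, although the clone 1 libraries differed most. Some genes are not reported here, though counts over all receptor genes and lists include them.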

Additional observations from a re-analysis of the deposited data

Results flagged for a closer look

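Receptor genes whose 2 clones differed from each other, by edgeR's test of clone 2 against clone 1, are given here as log2 fold changes of clone 2 over clone 1. Among glutamate receptor genes higher in clone 2 were Grin2c (1.47, adjusted p = 0.0467), Grik5 (0.43, adjusted p = 4.9e-06), Grid1 (0.26, adjusted p = 0.000249) and Grin3a (0.15, adjusted p = 0.015). Those lower in clone 2 were Grm4 (-1.91, adjusted p = 0.000174), Grik4 (-1.76, adjusted p = 1.91e-05), Grin1 (-1.69, adjusted p = 0.000229), Grin2b (-1.27, adjusted p = 0.00272), Grin2a (-1.17, adjusted p = 1.3e-06), Grik1 (-0.98, adjusted p = 1.64e-05), Grm3 (-0.40, adjusted p = 1.27e-05), Grm5 (-0.23, adjusted p = 0.000722) and Grik2 (-0.20, adjusted p = 0.0291).

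Among GABA receptor genes higher in clone 2 were Gabra3 (4.46, adjusted p = 0.00113), Gabra4 (3.33, adjusted p = 6.26e-11), Gabrb1 (2.13, adjusted p = 8.79e-09), Gabrr2 (0.87, adjusted p = 0.0287) and Gabbr1 (0.42, adjusted p = 1.01e-06). Gabra3 passed the filter on low counts in this fit through the clone 2 libraries alone, so clone 2 could only be called higher. Those lower in clone 2 were Gabbr2 (-1.39, adjusted p = 1.34e-11) and Gabrg1 (-0.45, adjusted p = 2.3e-05). The 2 GABA-B genes thus differed between the clones in opposite directions. Several of these calls were lost when 1 library was left out: Grik2 under most such settings (adjusted p up to 0.277), Gabrr2 without clone 1 library 1 (0.207) or either clone 2 library (0.114 and 0.0882), Grin3a without either clone 2 library (0.0625 and 0.0539), Grin2b without clone 2 library 1 (0.0507) and Grin2c without either parental library (0.0629 and 0.0596), clone 1 library 2 (0.223) or clone 2 library 1 (0.39).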

How the results depend on the processing

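The count of receptor genes called in the labelled knockout against parental cells, 17 with the clones as replicates, was 26 with a replicate block and 26 with the averaged clone effect of 6 libraries, and 10 to 16 when 1 library was left out. The share of all genes called was 26.7%, 56.2% with the block, 56.5% with the averaged effect and 9.59% to 29.2% with 1 library left out. Under the other scalings, filters and tests the receptor count was 13 to 19 and the share 16.1% to 35.3%. For the clone comparisons, leaving out 1 library left 1 library in a group, so counts from those fits are not given. With the replicate block, 25 receptor genes were called for clone 2 against parental, beside 53% of all genes. The block gave 21 for clone 1 against parental, beside 54.1%, and 23 for clone 2 against clone 1, beside 36.1%. Replicate numbers do not pair the libraries, since same-numbered libraries deviated together at correlations of 0.019, -0.015 and -0.0075 over 23400 genes, so the block has no support in the design. Genes near no change turned sign. Grik2 in the labelled knockout was -0.013 with DESeq2 size factors, -0.012 by DESeq2, -0.063 with upper quartile scaling, -0.063 with a mean of at least 1 CPM, -0.022 with the block, -0.018 with libraries as replicates and -0.022 with the averaged effect. Grik5 in clone 2 was -0.013, -0.013, -0.0072 and -0.038 with size factors, DESeq2, upper quartile scaling and the 1 CPM filter. With that filter Grin3a in clone 1 was -0.026. The median log2 fold change of all genes in the labelled knockout was -0.11 with no filter and 0.032 in the main analysis. With 1 library left out, the ranges that crossed 0 were -0.028 to 0.041 (Grik2, labelled knockout), -0.29 to 0.11, -0.33 to 0.18, -0.38 to 0.025 and -0.18 to 0.33 (Grin2d in labelled knockout, clone 2, clone 1 and clone 2 over clone 1), -0.0078 to 0.10 (Grik5, clone 2), -0.60 to 0.085 and -0.10 to 0.84 (Grin2c in labelled knockout and clone 2), and, for clone 2 over clone 1, -0.18 to 0.093 (Gabra2), -0.98 to 0.44 (Grm2) and -0.75 to 0.37 (Dlgap2). The cause of these differences was not tested. Depth limits the genes under 0.1 CPM, where a handful of counts decides a value.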
